A study of Mus musculus with 64 samples.

Results

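The comparison described here set the hippocampus of Tg2576 mice given the PDE9A inhibitor PF-04447943 against that of Tg2576 mice given vehicle. Its members were the 8 arrays titled as hippocampus, inhibitor and transgene carrier and the 8 titled as hippocampus, vehicle and transgene carrier, 16 of 64 arrays in the study. Tg2576 mice over-express a human mutant amyloid precursor protein and deposit amyloid as they age, and both groups carried the transgene. All animals were B6SJLF1 mice, a cross of C57Bl/6 and SJL, of 4 months. PF-04447943 or vehicle was infused under the skin for 28 days from an implanted minipump. The other arrays came from non-transgenic littermates, called wild-type here, under the same 2 treatments and from prefrontal cortex of all 4 kinds of mouse, with 8 arrays in each group. Total RNA of each dissected tissue was hybridised to an Affymetrix mouse expression array, and levels are log2 of the deposited intensity unless another scale is named. The labels do not give the sex of the mice. On every hippocampus array Xist was at least 10.70 and the Y-linked Eif2s3y at most 3.55, the pattern of female mice.

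Pde9a encodes a phosphodiesterase that breaks down cyclic GMP, the second messenger made by soluble guanylate cyclase after nitric oxide and by the natriuretic peptide receptors. Cyclic GMP activates the kinases Prkg1 and Prkg2 and acts on cyclic nucleotide-gated channels and on other phosphodiesterases, some of which cleave cyclic AMP as well. In hippocampus this messenger is known for its part in synaptic plasticity and in phosphorylation of the transcription factor CREB. Inhibition of the enzyme acts on its activity, and the arrays measured RNA.

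One array went against its tissue label. Over 68 genes that separated the 2 regions in vehicle-treated wild-type mice, by a log2 difference above 2, each array was placed on a scale on which the mean of wild-type prefrontal cortex is 0 and that of wild-type hippocampus is 100. The array labelled as replicate 1 of the PF-04447943 Tg2576 hippocampus group lay at 13.1 percent. The other 15 Tg2576 hippocampus arrays lay between 76.8 and 113.9 percent, and the 16 Tg2576 prefrontal cortex arrays between -11.9 and 9.17 percent. Wild-type prefrontal cortex arrays lay between -12.5 and 22.3 percent. Prox1, which marks dentate granule cells, was at 4.76 on that array, against 6.86 to 7.97 on the other 15 Tg2576 hippocampus arrays and 5.11 to 6.10 in Tg2576 prefrontal cortex. Dsp, also a granule cell gene, was at 4.62 against 7.63 to 10.15 on the other 15. Cux2, a gene of upper neocortical layers, was at 10.43 there and at 6.37 to 8.69 on the other 15. Spink8, of CA pyramidal cells, was at 6.07 there and at 8.82 to 10.76 on the other 15. Wfs1, also a CA pyramidal gene, went the other way, at 12.35 there against 10.19 to 11.65 on the other 15 and 9.96 to 11.32 in Tg2576 prefrontal cortex. Other markers lay between the regions on that array. The hippocampal genes C1ql2, Lct and Fibcd1 were at 7.69, 6.53 and 7.18, above highest levels of 6.56, 6.00 and 6.76 in Tg2576 prefrontal cortex. Tbr1 and Lamp5, of neocortical layers, were at 9.07 and 10.82, also between the regions. Rorb and Rasgrf2, at 9.56 and 11.48, lay in their prefrontal cortex range, and Fezf2 in the range of both regions. This array is called the library labelled replicate 1, and the results below include it as labelled. The value without it is added for the counts of called genes, and for some of the genes and list medians that it moved. Genes and lists given without such a value may have moved too. On the other 15 arrays Prox1, Dsp and Spink8 were above their highest level in Tg2576 prefrontal cortex.

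**Figure D1:**
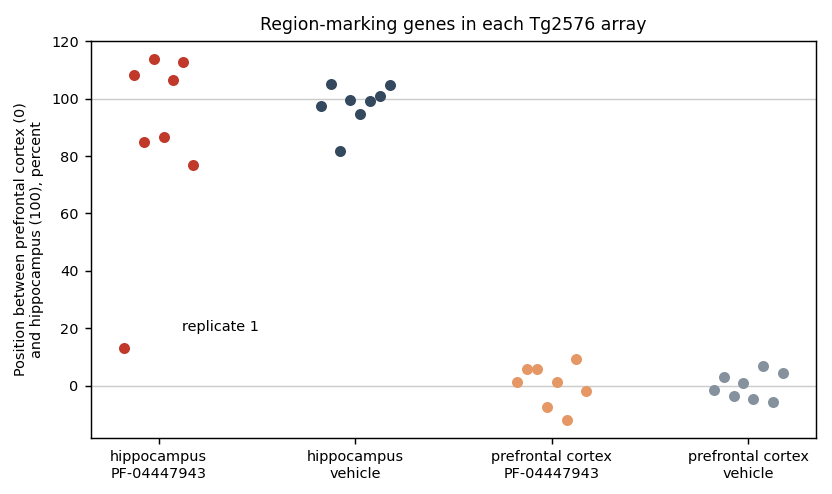
Position of each Tg2576 array between wild-type prefrontal cortex (0 percent) and wild-type hippocampus (100 percent), the median over 68 region-marking genes. Points are arrays, with PF-04447943 left of vehicle in each region. The library labelled replicate 1 of the hippocampal PF-04447943 group lies at 13.1 percent, near the prefrontal cortex arrays.

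No gene passed the test between PF-04447943 and vehicle in Tg2576 hippocampus. In limma over 12961 genes, 0 had an adjusted p under 0.05, a share of 0 percent, and the smallest adjusted p was 0.159. Values of single genes below are therefore descriptions of genes that did not pass. An unadjusted p under 0.05 was reached by 11.1 percent of genes. There were 1007 genes higher under PF-04447943, 7.77 percent of those tested, and 437 lower, 3.37 percent, where 648.05 genes in either direction are the number that this threshold gives by itself. The median log2 difference over all genes was 0.03, and 62.3 percent of genes had a difference above 0. Without the library labelled replicate 1 limma again called 0 genes, with a smallest adjusted p of 0.119, and an unadjusted p under 0.05 was reached by 940 genes in the higher and 455 in the lower direction. Without vehicle replicate 5 limma called 8 genes, 5 higher and 3 lower, and without vehicle replicate 8 it called 1. Nothing in the labels says whether animals of a group were handled as separate batches, so the p-values measure the spread between these arrays.

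The 2 groups did not overlap for 4 genes, 0.0309 percent of those tested. 2510009E07Rik (chromosome 16) had a lowest, median and highest level of 10.01, 10.10 and 10.24 in PF-04447943 hippocampus, against 9.58, 9.92 and 10.003 in vehicle hippocampus. Nufip2 (chromosome 11), which encodes an RNA-binding partner of the fragile X protein, had 9.36, 9.41 and 9.54 under PF-04447943 and 8.97, 9.12 and 9.29 under vehicle. Every PF-04447943 array was thus above every vehicle array for both genes, with log2 differences of 0.28 ± 0.06 and 0.30 ± 0.06 (SE, 8 arrays per group, limma adjusted p = 0.159 for each). Xab2 (chromosome 8), a factor of transcription-coupled DNA repair and splicing, had 8.62, 8.69 and 9.05 under PF-04447943 and 8.40, 8.50 and 8.57 under vehicle. Ino80e (chromosome 7), a subunit of the INO80 chromatin remodelling complex, had 9.19, 9.24 and 9.28 under PF-04447943 and 9.32, 9.42 and 9.58 under vehicle. Xab2 differed by 0.25 ± 0.06 (limma adjusted p = 0.230) and Ino80e by -0.20 ± 0.04 (limma adjusted p = 0.159). For Xab2, 2 further probe sets differed by 0.02 and 0.12, so its value rested on the one of highest signal. Nufip2 differed by 0.12 and 0.22, and Ino80e by -0.14 and -0.18, in their other probe sets. Without the library labelled replicate 1 the 4 differences were 0.29, 0.29, 0.25 and -0.19 for 2510009E07Rik, Nufip2, Xab2 and Ino80e.

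Promoter sequence is shown for the 3 of these genes that hold a core, because CREB, a factor that cyclic nucleotide kinases act on, binds the motif TGACGTCA and its core TGACG. In the sequences below the core, on either strand, is in capitals. Each holds the 250 bases before the start of the gene, 5′ to 3′ on the strand of the gene, from RefSeq promoters of build GRCm38.p6. Xab2 lies at chr8:3621297-3621546 on the minus strand, Nufip2 at chr11:77685889-77686138 on the plus strand, and Ino80e, at the start that has a core, at chr7:126862373-126862622 on the minus strand.
Xab2: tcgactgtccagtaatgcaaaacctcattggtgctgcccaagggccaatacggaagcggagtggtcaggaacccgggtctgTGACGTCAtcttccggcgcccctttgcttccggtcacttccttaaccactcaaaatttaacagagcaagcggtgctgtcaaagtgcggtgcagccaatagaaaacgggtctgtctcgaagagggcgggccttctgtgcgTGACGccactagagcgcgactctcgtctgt
Nufip2: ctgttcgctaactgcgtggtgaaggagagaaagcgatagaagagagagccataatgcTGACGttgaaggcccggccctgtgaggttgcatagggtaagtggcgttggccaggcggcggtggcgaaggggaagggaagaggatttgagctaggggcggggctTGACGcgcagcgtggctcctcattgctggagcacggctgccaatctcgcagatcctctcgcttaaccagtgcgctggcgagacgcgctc
Ino80e: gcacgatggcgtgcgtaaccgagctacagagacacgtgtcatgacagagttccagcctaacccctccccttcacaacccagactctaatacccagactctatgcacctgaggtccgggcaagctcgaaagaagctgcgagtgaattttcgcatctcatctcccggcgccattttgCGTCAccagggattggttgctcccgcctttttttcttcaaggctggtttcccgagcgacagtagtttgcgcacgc
Only Xab2 holds the complete 8-base motif, and its first capital base stands 169 bases before the start. The promoter of 2510009E07Rik held no core in this window. Among the 10439 tested genes with a promoter in the table, counting also the 50 bases after the start, 3.15 percent held the complete motif and 31.1 percent the core, which every complete motif contains. Genes with an unadjusted p under 0.05 in the higher direction held the complete motif in 3.76 percent of 825 promoters, and those in the lower direction in 2.01 percent of 348. A match is a description of letters in a window and not of binding.

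The 20 genes of smallest p comprised 9 that were higher and 11 that were lower under PF-04447943. Among those higher were Psma7, an alpha subunit of the proteasome core, Clns1a, a chaperone of spliceosomal protein assembly, and Kbtbd7, an adaptor of a ubiquitin ligase. Psma7 had a lowest, median and highest level of 10.70, 10.76 and 10.83 under PF-04447943 and 10.42, 10.47 and 10.76 under vehicle, a log2 difference of 0.23 ± 0.05 (limma adjusted p = 0.159). Its groups overlapped through 1 high vehicle array. Clns1a differed by 0.16 ± 0.03 in the probe set used and by 0.08, 0.05 and -0.14 in its other probe sets. Kbtbd7 differed by 0.23 ± 0.06 and by 0.25 in a second probe set above the filter. Myh7b, a myosin heavy chain, had the largest difference among these 20 genes, with levels of 6.91, 7.31 and 7.77 under PF-04447943 against 6.54, 6.80 and 7.17 under vehicle and a difference of 0.49 ± 0.11 (limma adjusted p = 0.191). Its highest value was on the library labelled replicate 1, and without that array it differed by 0.43. Ltbp4, a binding protein of latent TGF-beta in the matrix, differed by 0.23 ± 0.05, and its highest PF-04447943 value was also on that array. Arfgap2, which acts on Arf GTPases in Golgi traffic, differed by 0.25 ± 0.06 in the probe set used, but its other probe sets differed by 0.10, -0.39 and -0.24, so that the mean of its probe sets lay below vehicle.

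Of the 11 lower genes, none of which passed, Tap1 is described first. Tap1, the transporter that loads peptides for MHC class I, had a lowest, median and highest level of 6.46, 6.61 and 6.73 under PF-04447943, against 6.73, 6.91 and 7.38 under vehicle. The highest PF-04447943 and the lowest vehicle array were both at 6.73, and the log2 difference was -0.38 ± 0.09 (limma adjusted p = 0.181). Rasal3, a GTPase-activating protein of Ras in blood cells, had 6.16, 6.39 and 6.51 under PF-04447943 and 6.33, 6.72 and 7.16 under vehicle, a difference of -0.36 ± 0.08 (limma adjusted p = 0.181). Ifi27l2b, of an interferon-inducible family, differed by -0.27 ± 0.07. Htra1, a secreted serine protease made by astrocytes, had 11.29, 11.43 and 11.51 under PF-04447943 and 11.47, 11.59 and 11.98 under vehicle. Both of its probe sets differed by -0.21. Fam135b differed by -0.42 ± 0.10, and here the library labelled replicate 1 was the highest of its group at 6.99; without it the difference was -0.49 and the limma adjusted p 0.119, the smallest of that fit. Slc17a2, a phosphate transporter, Fam83d, a protein of the mitotic spindle, Gm3912 and Tmem252 differed by -0.30, -0.29, -0.32 and -0.34. Of the 20 genes, 13 were again among the 20 of smallest p without the library labelled replicate 1.

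**Figure D2:**
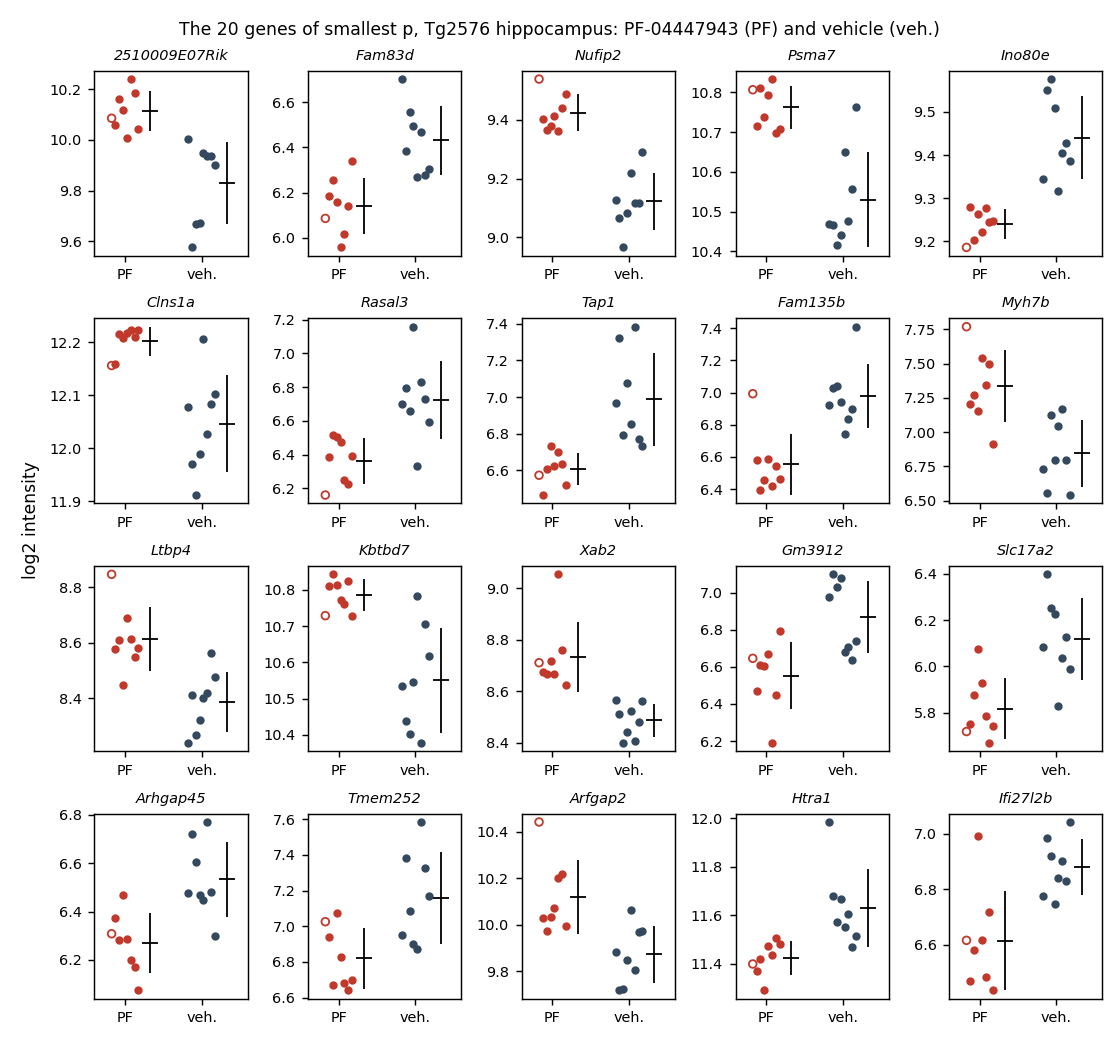
Levels (log2 intensity) of the 20 genes of smallest p on every Tg2576 hippocampus array, with PF-04447943 (PF, red) left of vehicle (veh., dark). Points are arrays, bars give the mean and 1 SD of 8 arrays, and the open circle is the library labelled replicate 1. For 2510009E07Rik, Nufip2, Xab2 and Ino80e the points of the 2 groups do not overlap.

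Among the genes that make and break cyclic GMP, none passed the test. Pde9a itself had a lowest, median and highest level of 6.88, 7.65 and 8.01 in PF-04447943 hippocampus, against 7.08, 7.42 and 7.93 in vehicle hippocampus. The groups overlapped over most of their range, and the log2 difference was 0.09 ± 0.15 (SE, limma adjusted p = 0.848), or 0.04 without the library labelled replicate 1. Of 11 listed cyclic GMP phosphodiesterases 9 were tested, and 6 of them had a difference above 0. The differences lay between -0.05 for Pde3b and 0.18 for Pde10a, with a median of 0.09, where the median of all genes was 0.03. The median of these phosphodiesterases was 0.04 without the library labelled replicate 1, and with the signal range of the array, described below, as a covariate it was -0.02. The other probe sets of Pde10a differed by -0.06, 0.06, -0.18 and -0.003. Pde1b, a calcium-activated enzyme, differed by 0.18 ± 0.09, but by 0.09 without the library labelled replicate 1. Pde2a, which cyclic GMP stimulates and which cleaves cyclic AMP, differed by less than 0.01 with that array and by -0.09 without it.

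On the side of synthesis, the beta subunit of soluble guanylate cyclase gave the smallest p of the cyclic GMP genes. Gucy1b1 had a lowest, median and highest level of 11.26, 11.43 and 11.68 in PF-04447943 hippocampus, against 10.86, 11.25 and 11.39 in vehicle hippocampus. All 8 PF-04447943 arrays were above the vehicle mean, and the difference was 0.22 ± 0.07 (unadjusted p = 0.00463, limma adjusted p = 0.326). A second probe set of Gucy1b1 with high signal differed by 0.00, so the 2 probe sets of the gene disagree. Gucy1a2, an alpha subunit, differed by 0.20 ± 0.09, again with 8 of 8 arrays above the vehicle mean. Nos1, the neuronal nitric oxide synthase, differed by 0.23 ± 0.11, and by 0.13 without the library labelled replicate 1. Gucy1a1, the other alpha subunit tested, differed by 0.17 ± 0.15, and by 0.08 without that array. Of 16 listed genes of synthesis 9 were tested, 3 had an unadjusted p under 0.05, all higher, beside 7.77 percent of all genes, and the median difference was 0.07. It was 1 of the 9 without the library labelled replicate 1.

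Among the targets of cyclic GMP, 8 of 17 listed genes were tested. Of them 1 had an unadjusted p under 0.05, higher, beside 7.77 percent of all genes, or 0 without the library labelled replicate 1. This was Vasp, an actin regulator phosphorylated by the kinase, at 7.80, 7.86 and 8.50 under PF-04447943 and 7.58, 7.76 and 7.92 under vehicle. Its highest value came from the library labelled replicate 1, and the log2 difference of 0.16 ± 0.07 was 0.08 without it. The kinases Prkg1 and Prkg2 differed by 0.10 ± 0.08 and 0.25 ± 0.29, and Prkg2 by 0.06 without that array. The channel genes Hcn2 and Hcn3 differed by -0.09 ± 0.07 and 0.17 ± 0.09, and Hcn3 by 0.08 without that array.

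**Figure D3:**
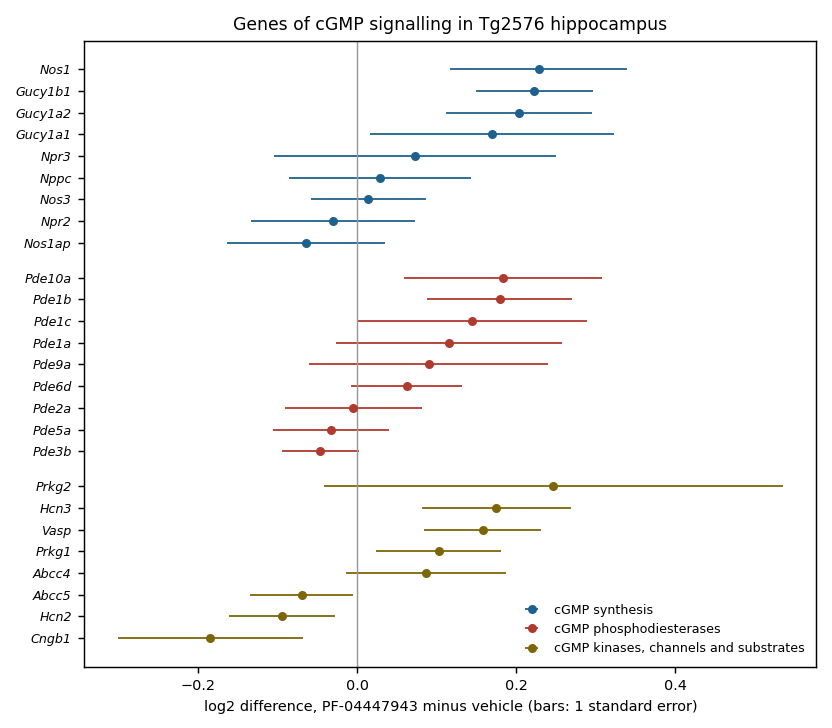
Log2 difference between PF-04447943 and vehicle in Tg2576 hippocampus for the tested genes of 3 cyclic GMP lists, with all 8 arrays of each group. Points are fitted differences and bars are 1 standard error. The values run from -0.18 for Cngb1 to 0.25 for Prkg2, which was 0.06 without the library labelled replicate 1, and none passed the adjusted threshold.

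The cyclic AMP genes, whose product several of these enzymes share, had no member past the test either. Prkaca, the catalytic subunit of protein kinase A, had 11.10, 11.19 and 11.36 in PF-04447943 hippocampus, against 10.62, 10.89 and 11.25 in vehicle hippocampus. All 8 PF-04447943 arrays were above the vehicle mean, with a log2 difference of 0.30 ± 0.08 (unadjusted p = 0.00131, limma adjusted p = 0.294), while its second probe set differed by 0.06. Beside 62.3 percent of all genes, all 7 tested cyclic AMP phosphodiesterases had a difference above 0, with a median of 0.08. Of them 1, Pde4b, had an unadjusted p under 0.05, higher, beside 7.77 percent of all genes. Without the library labelled replicate 1, 6 of 7 were above 0 and 0 reached that p. Pde4b differed by 0.31 ± 0.12 with the library labelled replicate 1 and by 0.19 without it. For CREB and its coactivators the median over 9 tested genes was 0.007, or 0.004 without the library labelled replicate 1. Only Atf2 had an unadjusted p under 0.05, at 0.12 ± 0.06, beside 7.77 percent of all genes in the higher direction. No member of that list reached it without the library labelled replicate 1. The 16 tested immediate early genes, which neurons switch on with activity, had a median of 0.02 and 0 with an unadjusted p under 0.05. The median was -0.02 without the library labelled replicate 1, with 7 of 16 above 0, and 0.145 with the signal range as a covariate. Fos differed by 0.27 and Arc by 0.00, and the largest of these differences, -0.33 for Nr4a3, was -0.02 without the library labelled replicate 1.

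No synaptic gene passed the test. Camk4, a nuclear calmodulin-dependent kinase, had 10.42, 10.56 and 11.03 under PF-04447943 and 9.99, 10.30 and 10.57 under vehicle, with a log2 difference of 0.28 ± 0.09 (limma adjusted p = 0.313). Its other probe sets differed by 0.41, -0.08, -0.004 and -0.17, so the probe sets of the gene disagree. Ppp3cc, a catalytic subunit of calcineurin, had 7.20, 7.37 and 7.65 under PF-04447943 and 6.79, 7.003 and 7.43 under vehicle, a difference of 0.36 ± 0.10 (limma adjusted p = 0.287). In both, 8 of 8 PF-04447943 arrays were above the vehicle mean, and the groups overlapped. Ppp3ca and Ppp3cb, the catalytic subunits with high brain expression, differed by -0.02 and 0.01. Dlg4, which encodes the scaffold PSD-95, had 10.43, 10.61 and 10.81 under PF-04447943 and 10.66, 10.81 and 11.08 under vehicle, a difference of -0.24 ± 0.09 (limma adjusted p = 0.351). The 8 tested adhesion genes of the synapse all had a difference above 0, beside 62.3 percent of all genes. Without the library labelled replicate 1, 7 of them did. Their median was 0.10, or 0.07 without that array and 0.06 with the signal range as a covariate. Nlgn1 differed by 0.24 ± 0.09. Of 9 tested AMPA and NMDA receptor subunits 1, Grin2a, had an unadjusted p under 0.05, lower, beside 3.37 percent of all genes. Its difference of -0.40 ± 0.19 was -0.27 without the library labelled replicate 1. Without that array 0 of the 9 subunits reached that p. A difference above 0 was found for 5 of the 9 with all arrays and for 8 without that array.

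The list of interferon response and antigen presentation had the lowest median of the pathway lists. Of its 12 tested members 11 had a difference below 0 and 2 an unadjusted p under 0.05, both lower, with 3.37 percent of all genes in that class. The median was -0.15, and it was -0.14 without the library labelled replicate 1; in wild-type hippocampus it was 0.00. Beside Tap1, H2-Ea, an MHC class II chain, differed by -0.28 ± 0.13, Psmb9, a subunit of the immunoproteasome, by -0.23 ± 0.15 and B2m by -0.13 ± 0.13. The other probe sets of H2-Ea, below the filter at hippocampal means of 4.05 and 3.53, differed by 0.01 and 0.09. The mean level over 15 members with a probe set had a lowest, median and highest value of 6.91, 7.11 and 7.31 under PF-04447943 and 7.09, 7.18 and 7.44 under vehicle. The groups overlapped. In the list of NF-kappa-B and inflammatory signals, Nfkb2, a subunit of that factor, had 8.33, 8.67 and 8.86 under PF-04447943, against 8.56, 8.99 and 9.40 under vehicle, a difference of -0.41 ± 0.11 (limma adjusted p = 0.294), with 8 of 8 arrays below the vehicle mean. Cxcl1, a chemokine, differed by -0.19 ± 0.08, and the median of the 9 tested members was -0.04, or -0.07 without the library labelled replicate 1.

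Among the pathway lists the clock genes had the highest median, 0.14 over 12 tested members. Of them 11 had a difference above 0, beside 62.3 percent of all genes, though 0 reached an unadjusted p under 0.05. With the signal range as a covariate the clock median was 0.07, and the immediate early genes had the highest median, 0.145. Dbp, an output gene of the clock, differed by 0.46 ± 0.25, and Per3 by 0.20 ± 0.11. The list median was 0.09 without the library labelled replicate 1, and 4 members, all higher, had an unadjusted p under 0.05. In that fit 940 of all 12961 genes were in that class. For amyloid precursor processing and clearance, 20 members were tested, the median was 0.03, and Sorl1, a sorting receptor of the precursor, had 11.54, 11.81 and 12.14 under PF-04447943 and 11.76, 12.07 and 12.35 under vehicle. Its difference was -0.22 ± 0.09 (limma adjusted p = 0.391). App differed by -0.01, with a mean of 13.97 in PF-04447943 Tg2576 hippocampus and 13.98 in vehicle Tg2576 hippocampus, and means of 13.95 and 13.98 in the corresponding wild-type groups, so this mouse probe set does not check the transgene. Heat shock and unfolded protein genes had 3 of 12 tested members with an unadjusted p under 0.05, all higher, beside 7.77 percent of all genes, and 2 of 12 without the library labelled replicate 1. Dnajb9 was among them at 0.17 ± 0.06 and Hsp90b1 at 0.21 ± 0.08, though a second probe set of Hsp90b1 differed by 0.01. The other pathway lists had medians between -0.05 and 0.12, or between -0.07 and 0.09 without the library labelled replicate 1.

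**Figure D4:**
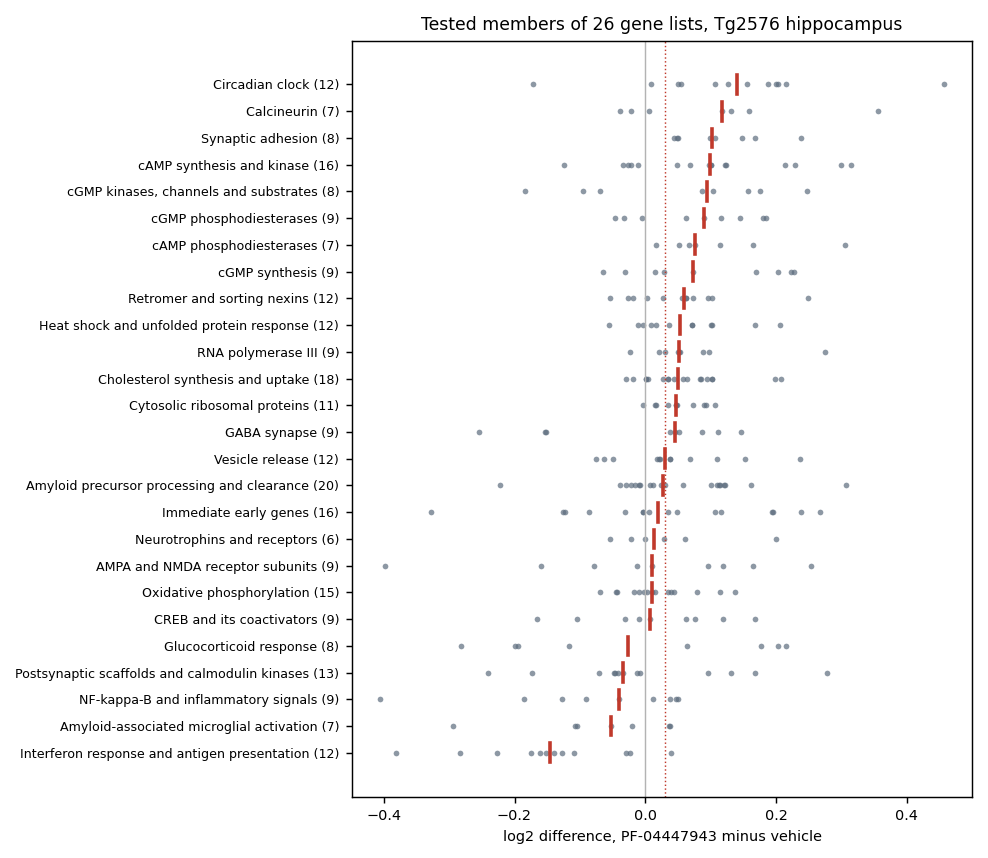
Log2 difference between PF-04447943 and vehicle in Tg2576 hippocampus for the tested members of the pathway gene lists, ordered by the list median (red bar), with the number of tested members in parentheses. The dotted line is the median of all genes, 0.03. Interferon response and antigen presentation lies lowest at -0.15 and the clock genes highest at 0.14.

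Several genes of other roles, named because earlier results of these data over both genotypes had named them, did not pass in Tg2576 hippocampus alone. Cyp2b10, a drug-metabolising cytochrome, had a lowest, median and highest level of 6.62, 7.02 and 7.38 under PF-04447943, against 7.01, 7.48 and 8.08 under vehicle. All 8 PF-04447943 arrays were below the vehicle mean, with a log2 difference of -0.51 ± 0.15 (limma adjusted p = 0.294), and the difference was -0.53 in wild-type hippocampus. Oprm1, the mu opioid receptor, differed by -0.31 ± 0.12, against -0.54 in wild-type hippocampus. Fkbp3, a nuclear prolyl isomerase, had 11.23, 11.47 and 11.63 under PF-04447943 and 10.81, 11.08 and 11.55 under vehicle, a difference of 0.32 ± 0.10 (limma adjusted p = 0.326). Ifrd1, a transcriptional coregulator, differed by 0.36 ± 0.11, and by 0.27 without the library labelled replicate 1. Polr3a, the largest subunit of RNA polymerase III, differed by 0.27 ± 0.10 and Snx6, a sorting nexin of retromer, by 0.25 ± 0.10. The other probe sets of Polr3a differed by 0.04 and -0.02. In cholesterol synthesis and uptake 16 of 18 tested genes had a difference above 0, or 14 without that array, with a median of 0.05. That median was 0.01 with the signal range as a covariate. Insig1, which restrains cholesterol synthesis, differed by 0.20 ± 0.09. Among cytosolic ribosomal proteins 10 of 11 had a difference above 0, also with a median of 0.05, or 0.03 with that covariate. Of all genes 62.3 percent had a difference above 0.

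Markers of several cell types moved with the library labelled replicate 1. The 8 tested dentate granule cell markers had a median difference of -0.19 with it and 0.11 without it. The 8 tested markers of oligodendrocytes had -0.08 with it and 0.11 without it, and their mean level was lowest on that array, at 10.06 against 11.60 for the median of the PF-04447943 group. The 6 tested markers of neocortical layers had 0.23 with it and 0.10 without it, and 5 of thalamus had 0.32 with it and 0.24 without it, the highest median of any list. Inhibitory and striatal neuron markers had medians of 0.02 and 0.02 with it and -0.09 and -0.12 without it. Those of CA pyramidal cells and ependyma were -0.04 and -0.08 with it and 0.01 and 0.05 without it. The 5 markers of oligodendrocyte precursors had -0.10 with it and -0.01 without it, with 2 at an unadjusted p under 0.05 with it and 1 without it, all lower. With all arrays 3.37 percent of all genes were in that class. Gfap, the intermediate filament of astrocytes, had 11.59, 11.82 and 12.13 under PF-04447943 and 11.79, 12.09 and 12.40 under vehicle, a difference of -0.26 ± 0.10 (limma adjusted p = 0.388), and -0.30 without that array. Of 9 tested astrocyte markers 3 had a difference above 0, with a median of -0.09, or -0.01 without that array. Without it 2 of the 9 were higher and 1 lower at an unadjusted p under 0.05. In that fit 940 of all 12961 genes were higher and 455 lower at that p. Of 7 tested endothelial markers 6 had a difference below 0, or 4 without that array. Their median was -0.10 with it and -0.12 without it. An unadjusted p under 0.05 was reached by 1 of them with it and 2 without it, all lower. Of all genes 3.37 percent were in that class with it, and 455 of 12961 without it. Cldn5 differed by -0.22 ± 0.08. Ttr, of the choroid plexus, ranged over 7.91 to 15.06 under PF-04447943 and 8.94 to 14.80 under vehicle. In bulk tissue fewer cells of a type and less RNA per cell cannot be told apart. The part of these markers in the results above was not tested beyond leaving out that array.

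The difference varied with the level of the gene. With the tested genes split by hippocampal level into 10 groups of equal size, numbered upward, the median log2 difference was -0.04 in group 1, 0.05 in groups 5 to 9 and 0.03 in group 10. In group 1, 129 genes had an unadjusted p under 0.05 in the lower and 31 in the higher direction, and in group 9, 9 in the lower and 126 in the higher direction. Within an array, log2 values had an interquartile range of 3.60 ± 0.11 in PF-04447943 hippocampus and 3.52 ± 0.12 in vehicle hippocampus (SD, n = 8 arrays each), a difference that a two-sided exact permutation test over 12870 regroupings did not separate (p = 0.171, adjusted over 2 array measures 0.335). The RNA quality measure, the mean difference of 3 prime and 5 prime control probe sets, was 0.084 ± 0.076 in PF-04447943 hippocampus and 0.052 ± 0.040 in vehicle hippocampus (SD, n = 8 arrays each, exact permutation p = 0.335, adjusted 0.335). Without PF-04447943 replicate 6 the difference of 0.032 in RNA quality was 0.0087. With the interquartile range as a covariate, limma called 0 genes, and 530 genes in the higher and 377 in the lower direction had an unadjusted p under 0.05.

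**Figure D5:**
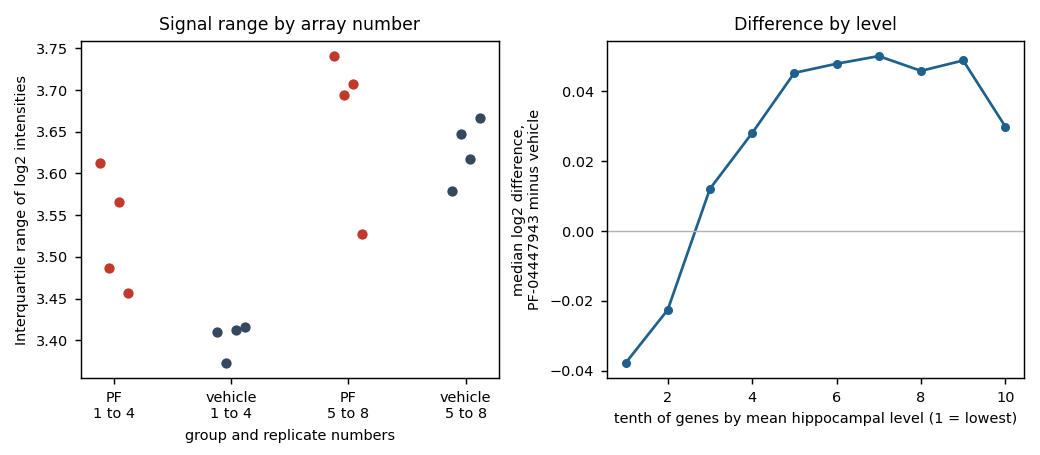
Left, the interquartile range of log2 intensities on each Tg2576 hippocampus array by treatment and replicate number, with PF-04447943 (PF) left of vehicle in each set of numbers. Right, the median log2 difference between PF-04447943 and vehicle in 10 groups of genes ordered by level. Vehicle arrays numbered 1 to 4 lie between 3.37 and 3.42 and those numbered 5 to 8 between 3.58 and 3.67.

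The interquartile range also split the vehicle arrays by number. In arrays numbered 1 to 4 it was 3.46 to 3.61 under PF-04447943 and 3.37 to 3.42 under vehicle, and in those numbered 5 to 8 it was 3.53 to 3.74 under PF-04447943 and 3.58 to 3.67 under vehicle. The labels do not say what the numbers stand for. Fitted by set of numbers in 1 limma model, the arrays numbered 1 to 4 gave 275 genes with an adjusted p under 0.05, 212 higher and 63 lower, and those numbered 5 to 8 gave 0, with 295 genes at an unadjusted p under 0.05. Without the library labelled replicate 1 the first set gave 47 genes, 33 higher and 14 lower. In that set every PF-04447943 array also had a wider interquartile range than any vehicle array. The part of this range in these calls was not tested. The test of the difference between the sets called 0 genes, with 1044 at an unadjusted p under 0.05 and a smallest limma adjusted p of 0.447, so the sets are not shown to differ for any gene. For Htra1 the difference was -0.36 in the first set and -0.06 in the second, and for Gm3912 -0.47 and -0.17.

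Wild-type hippocampus gave the same drug contrast in separate animals. There limma called 5 of 12961 genes, 0.0386 percent, all of them lower under PF-04447943. These were Slc17a2, Kcnk16, Insyn2a, Lelp1 and Cyp17a1. Slc17a2 passed the filter on low values, at 5.94, only through the vehicle groups, with means of 5.82 in PF-04447943 Tg2576 and 6.12 in vehicle Tg2576 hippocampus, and of 5.77 in PF-04447943 wild-type and 6.21 in vehicle wild-type hippocampus. In Tg2576 hippocampus, where none of these 5 passed, Slc17a2 differed by -0.30, Kcnk16 by -0.11, Insyn2a, a protein of inhibitory synapses, by -0.27, Lelp1 by -0.18 and Cyp17a1, a steroid hydroxylase, by -0.21. The differences in wild-type hippocampus were -0.44, -0.41, -0.44, -0.28 and -0.32 in the same gene order. In Tg2576 hippocampus a second probe set of Insyn2a above the filter differed by 0.06. An unadjusted p under 0.05 was reached in wild-type hippocampus by 13.6 percent of genes, 6.71 percent higher and 6.93 percent lower. Genes at an unadjusted p under 0.05 in both genotypes numbered 188 in the higher direction, 18.7 percent of the Tg2576 and 21.6 percent of the wild-type genes in that class. In the lower direction they numbered 212, which is 48.5 percent of the Tg2576 and 23.6 percent of the wild-type genes. Over all genes the differences of the 2 genotypes had a Pearson correlation of 0.37, across genes that share arrays and levels within each genotype. The level pattern was present in wild-type hippocampus too, with medians of -0.12 in group 1 and 0.05 in group 9. Within an array the interquartile range was 3.65 ± 0.06 in PF-04447943 wild-type and 3.52 ± 0.08 in vehicle wild-type hippocampus (SD, n = 8 arrays each). With it as a covariate, limma gave 100 genes higher and 336 lower at an unadjusted p under 0.05. Without the covariate these were 870 and 898. The part of the interquartile range in the overlap between the genotypes was not tested.

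The drug by genotype difference was called for 0 genes, with a smallest limma adjusted p of 0.9998 and 360 genes at an unadjusted p under 0.05, 2.78 percent, of which 1.61 percent had a higher and 1.17 percent a lower difference in Tg2576. The smallest p belonged to Etnppl, an astrocyte enzyme of phosphoethanolamine breakdown. It had a lowest, median and highest level of 6.21, 7.04 and 8.31 in PF-04447943 Tg2576 hippocampus, against 6.88, 7.82 and 8.95 in vehicle Tg2576 hippocampus. Its log2 difference was -0.81 ± 0.30 in Tg2576 hippocampus and 0.75 in wild-type hippocampus (unadjusted p of the difference between them = 0.000818). Htra1 differed by -0.21 in Tg2576 and by 0.06 in wild-type hippocampus. Without the library labelled replicate 1, 297 genes had an unadjusted p under 0.05 in this contrast and 0 were called.

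In Tg2576 prefrontal cortex limma called 0 of 12925 genes, and 389, or 3.01 percent, had an unadjusted p under 0.05, 1.25 percent higher and 1.76 percent lower. The 4 genes whose groups did not overlap in hippocampus differed there by -0.01 for 2510009E07Rik, 0.02 for Nufip2, 0.04 for Xab2 and -0.06 for Ino80e. Gucy1b1 differed by 0.12, Prkaca by 0.12 and Nfkb2 by 0.05. The test of the difference between the regions called 0 of 12950 genes, with a smallest limma adjusted p of 0.807 and 598 genes, 4.62 percent, at an unadjusted p under 0.05 (2.53 percent higher and 2.08 percent lower in hippocampus), so none of these is shown to differ between regions. Lmtk3, a membrane kinase of neurons, was first by p in that contrast, with a log2 difference of -0.34 in hippocampus against 0.24 in prefrontal cortex. Without the library labelled replicate 1 that contrast again called 0 genes, with 699 at an unadjusted p under 0.05.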

How the data were processed

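Total RNA from hippocampus and prefrontal cortex of 64 samples was measured on 1-colour Affymetrix arrays of 45101 probe sets. The deposited values are intensity estimates, and the submitters' processing notes name RMA. The sources used here do not give its software, its version or which arrays were normalized together. The authors' table is linear, with a lowest value of 5.87 and a highest of 34088.9, and log2 of the deposited values was taken. Arrays have no read depth, so their number limits the precision.

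Of the probe sets, 34945 had 1 gene symbol in the platform annotation, updated through RefSeq (GRCm38.p6), 932 had several, 9160 had none there and 64 were controls. Each gene was represented by its probe set of highest mean, and genes below the 40th percentile of hippocampal levels, log2 5.94, were left out. Genes without a value were not analysed here. Differences were fitted with limma 3.58.1 in R 4.3.3 over the 4 groups of 32 hippocampus arrays without a block, with Benjamini-Hochberg adjustment over all genes and a threshold of 0.05. Prefrontal cortex and the contrast of regions had fits of their own. The interquartile range and RNA quality were compared with exact permutation tests. limma was tested on simulated data.

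The genes named by rule were the 20 of smallest p, since none passed, the tested cyclic GMP genes, the 2 of smallest p of each other pathway or marker list, 13 named by earlier results and the 5 of smallest p for each difference of drug effects. Other genes (the markers of the library labelled replicate 1, the wild-type calls, and further list members such as Fos, Arc and Ppp3ca) were picked with their values in view. The comparison, the lists and the genes were chosen with earlier results of these data known. Replicate numbers were not used as a pairing, which the labels do not state. Alternatives changed the filter, probe sets, normalization, variance prior, weights, covariates, arrays, block and threshold. Promoters came from RefSeq tables, read with Python 3.11.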

Additional observations from a re-analysis of the deposited data

Results flagged for a closer look

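In 98 tests of whether 1 array stands apart from the other 7 of its group (Dixon's test at the 95% level, for the 20 genes of smallest p, the cyclic GMP genes and 3 array measures), 11 were positive, and chance gives about 1 in 20. Of these 11, 5 were the library labelled replicate 1 of the PF-04447943 Tg2576 hippocampus group. It had the lowest region position, 13.12 percent, and the highest level of its group for Fam135b at 6.99, Pde2a at 13.46, Vasp at 8.50 and Hcn3 at 8.33. In the PF-04447943 group, Xab2 was also far highest on replicate 6, at 9.05, and Pde3b far lowest on replicate 4, at 8.35. In the vehicle group, replicate 8 was far highest for Fam135b at 7.41, replicate 1 far highest for Htra1 at 11.98, and replicate 3 far lowest for Prkg1 at 7.91 and for the region position at 81.84 percent. The cause of these values was not tested.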

How the results depend on the processing

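In Tg2576 hippocampus limma called 0 genes under every alternative of filter, probe sets, normalization, prior, weights, covariate, groups, threshold and replicate block, with a smallest adjusted p of 0.0866 among them. Leaving out single arrays gave 0 to 8 genes: 8 without vehicle replicate 5, 1 without vehicle replicate 8 and 0 without any other. Alternatives by set of numbers were added after seeing the data: with the 2 sets as a block 0 genes passed, and on arrays numbered 1 to 4 only 89 did, 66 higher and 23 lower. Deviations of same-numbered PF-04447943 and vehicle arrays correlated at 0.15 to 0.42 for 6 numbers, at 0.06 for number 1 and at -0.27 for number 8, and 1 of 8 arrays correlated best with its own number, so not every number met the 0.1 needed for pairing. The mean correlation was 0.13 within a set of 4 numbers and -0.13 across sets. The deviations are from the mean of each group, which by itself makes these 2 means nearly cancel. The value across sets is therefore not a separate observation. With the replicate block 1242 genes in the higher and 512 in the lower direction had an unadjusted p under 0.05. That split of 1007 to 437 became 607 to 596 with quantile normalization, 1610 to 265 with each array centred on its median, 530 to 377 with the signal range as a covariate, 1098 to 927 with no filter and 933 to 192 with the 60th percentile filter.

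The 5 genes called in wild-type hippocampus became 57 with no filter, 0 with the 60th percentile filter, 1 with all probe sets, with their mean, with quantile normalization, with centring and with the robust prior, 2 with the RNA quality covariate, 0 with the signal range covariate, 608 with array weights, 100 with only the groups compared, 22 with the replicate block, 21 at a threshold of 0.1, 87 with the 2 sets of numbers as a block, 33 on arrays numbered 1 to 4 and 0 on those numbered 5 to 8. The contrasts of genotype and region and that of prefrontal cortex had 0 calls under every alternative run.

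Of 137 named genes 19 changed sign on arrays numbered 5 to 8 only. Among those with an unadjusted p under 0.05 on all arrays, Arfgap2 reversed to -0.0724 with the mean of its probe sets, and Nos1 to -0.0753 and Atf2 to -0.0325 on arrays numbered 5 to 8 only. On arrays numbered 1 to 4 the interquartile range differed by 0.13 (exact permutation p = 0.0286, the smallest that 70 regroupings give), and on those numbered 5 to 8 by 0.04 (exact permutation p = 0.486). Quantile normalization changed the sign of 10 of 43 list medians and the signal range covariate that of 6. The cause was not tested.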
